A study of Homo sapiens with 9 samples.

Results

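The comparison described here is that of STK19 knockout cells 3 h after UV-C irradiation with the same knockout left unirradiated. Each condition was 1 BrU-seq library, and the units compared were transcription start sites (TSS), each with its own identifier. Of the 9805 TSS identifiers in the series, 8384 were present in the files of both knockout libraries and form the members of the comparison. The parental pair held 8791 in the same way and the rescue pair 8385.

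The cells were RPE1, an hTERT-immortalised human retinal pigment epithelium line, carrying inducible Cas9 (iCas9) and a double knockout of p53 and the puromycin resistance gene (p53/puro-dKO). Those alterations were shared by all 3 lines of the study: the parental line (WT), the STK19 knockout (KO) and the knockout with an STK19-TY transgene (rescue). Irradiated cells received 12 J/m2 of UV-C, mock cells none, and all were pulsed with 2 mM bromouridine for 30 min. The labels differ on timing: by one field the pulse began 2.5 h after irradiation, by another after 3 h of incubation. The library labels name no clone number and no repeat culture, so no difference between the 2 knockout libraries has a replicate check and none carries a p-value. All RNA came from cells without p53, which limits what these lines show about the p53 arm of the UV response.

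UV-C makes bulky lesions in DNA, and RNA polymerase II stops when it meets one in the transcribed strand. Stalled polymerase is recognised by the transcription-coupled repair factors CSB and CSA, followed by UVSSA and TFIIH, and STK19 is known as a further factor of this pathway. Because each polymerase can stop only after it has started, the chance of having met a lesion grows with distance from the TSS, and nascent RNA after UV is classically kept near the TSS and lost further into long genes. BrU-seq reads this pattern directly, since bromouridine marks only RNA made during the pulse, and the RNA is then pulled down with an anti-BrdU antibody and sequenced. The series was made to study the part of STK19 in this recovery.

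For each identifier the deposited files gave coverage, called signal here, in bins of 200 bp, reaching 100 kb to each side of the TSS. The 2 knockout libraries had been scaled to similar totals, the 3 h library summing to 1.03 times mock, so a ratio between them compares shares of a library and not amounts of RNA per cell. Fewer transcribing cells and less RNA per cell cannot be told apart. The smallest step of signal was 0.647 in mock and 4.88 at 3 h, a 7.55-fold difference in depth, and the 3 h library was the shallowest of the 9. A single covered fragment at 3 h therefore weighed as much as several in mock, and values of single identifiers were less precise at 3 h. The identifiers were not paired with gene names in the tables used here (0 of 9805 matched), so STK19 itself, UV-response genes and the markers of the cell line were not analysed here, and no sequence is shown. Neighbouring TSS share signal where their windows overlap, so identifiers are not independent of each other.

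Members were grouped by their mock level, that is, their signal in the mock library averaged over the bins of the first 25 kb. The class from 1 to 4 held 1861 identifiers, the class from 4 to 20 held 1517 and the class over 20 held 173. The remaining 4833 lay under 1, and 2838 of those had no signal from 0 to 25 kb at 3 h, so they were left out of the ratios below. Median levels were 2.15 in mock and 2.30 at 3 h in the lowest of the 3 classes, 6.87 and 7.89 in the middle class and 32.6 and 34.9 in the highest. The median number of signal steps behind those levels was 415 in mock and 59 at 3 h, 1327 and 202, and 6292 and 895, in the same order. Since the mock level chose the classes and is also one side of each ratio, the ratios within 25 kb of the TSS are not independent of the grouping. The identifiers next to the class limits show how fine the division is: a mock level of 4.004 went with 3.44 at 3 h just inside the middle class, and a mock level of 3.999 with 7.89 just outside it. At the limit of 20, the levels at 3 h were 20.6 just inside the highest class and 15.4 just outside it. At the limit of 1 they were 1.52 just inside and 1.68 just outside.

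In the knockout 3 h after UV-C, pooled nascent signal was higher than in mock over the first 5 kb of the transcribed region in all 3 level classes and lower beyond 75 kb. Pooled over the first 5 kb, the mean signal per bin went from 3.69 to 4.73 in the class from 1 to 4, a ratio of 1.28. It went from 14.5 to 20.2 in the class from 4 to 20, a ratio of 1.4. In the class over 20 it went from 122 to 152, a ratio of 1.24. From 75 to 100 kb the ratios were 0.915, 0.947 and 0.755 in the same order. The far side of the window thus held less of the library's pooled signal at 3 h in each class, by the widest margin in the class over 20. That margin narrowed with classes from WT mock, where the pooled ratios were 0.886, 0.944 and 0.866. Medians of single identifiers did not share the order, at 0.648, 0.717 and 0.721, lowest in the class from 1 to 4.

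The distance at which the 3 h signal dropped under mock differed between these classes. They were cut on the mock signal of the first 25 kb, which also enters each ratio within that stretch. The crossing distances therefore cannot tell a difference between classes from an effect of the grouping. Whether they differ with classes from WT mock was not tested. In the classes from 1 to 4 and from 4 to 20 the first 5-kb window under mock started at 25 kb. In the class from 4 to 20 that window stood at 0.982, and those starting at 30 and 35 kb were above mock again, at 1.08 and 1.03. In the class over 20 the first window under mock started at 5 kb, and 19 of 20 downstream windows were below mock. The lowest ratio there was 0.645, in the window starting at 50 kb. The class from 1 to 4 had 15 of 20 windows below mock, with a lowest ratio of 0.865 at 90 kb, and the class from 4 to 20 had 12 of 20, with a lowest of 0.922 at 80 kb. Windows more than 5 kb upstream of the TSS give a scale for these differences. Their ratios had medians of 1.03, 1.04 and 1.07 over 19 windows, and ranged from 0.941 to 1.16, from 0.954 to 1.17 and from 0.634 to 1.34, the 0.634 resting on 1775 steps at 3 h. In the class over 20, the lowest downstream ratio therefore lay inside the upstream range, although upstream windows fell on both sides of 1 and downstream windows past 5 kb all lay under it. The lowest downstream windows of the classes from 1 to 4 and from 4 to 20 lay below their upstream ranges.

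**Figure D1:**
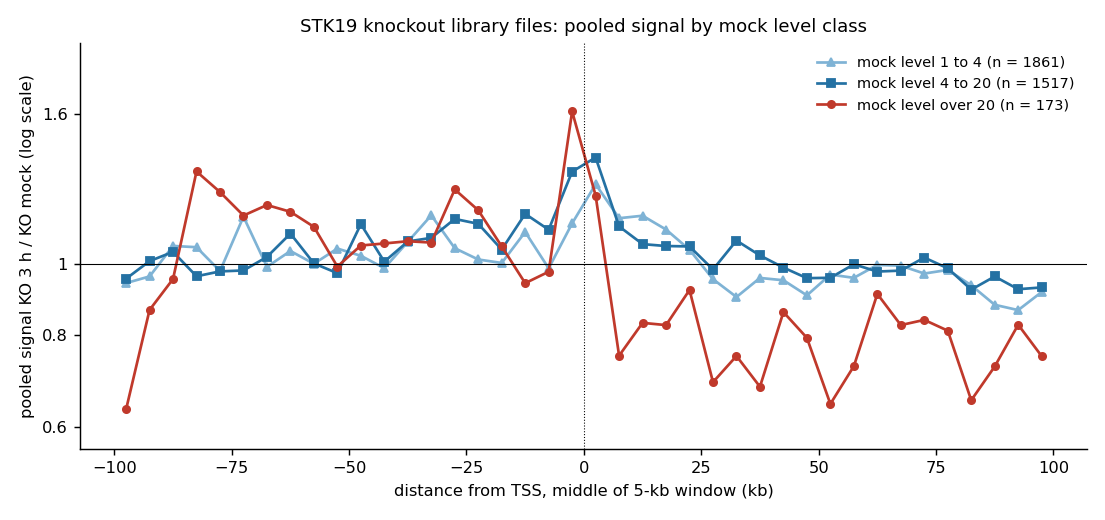
Pooled signal of the knockout at 3 h divided by mock (log axis) in 5-kb windows from 100 kb upstream to 100 kb downstream of the TSS, 1 line per mock level class, 1 library per side. The highest point of the class over 20 is the window just upstream of the TSS at 1.61, and its downstream points past 5 kb all lie below 1.

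In 1-kb windows the excess at 3 h in the class over 20 was limited to a short stretch around the TSS. Mean signal in the last 1 kb before the TSS was 17.9 in mock and 34.7 at 3 h, a ratio of 1.95. In the first 1 kb after it the values were 97.7 and 160, a ratio of 1.64. The ratio declined to 1.42, 1.14 and 1.02 in the next windows and stood at 0.943 between 4 and 5 kb and at 0.679 between 7 and 8 kb. It came back to 0.997 and 1.04 in the windows starting at 20 and 21 kb, so the decline was not even. The highest 200-bp bin of this class moved towards the TSS, from 161 at 2200 bp in mock to 224 at 1200 bp at 3 h. In the class from 4 to 20 the highest bin stayed at 1000 bp, with 19.8 in mock and 29.6 at 3 h, and in the class from 1 to 4 it stayed at 400 bp, with 5.27 and 7.18.

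**Figure D2:**
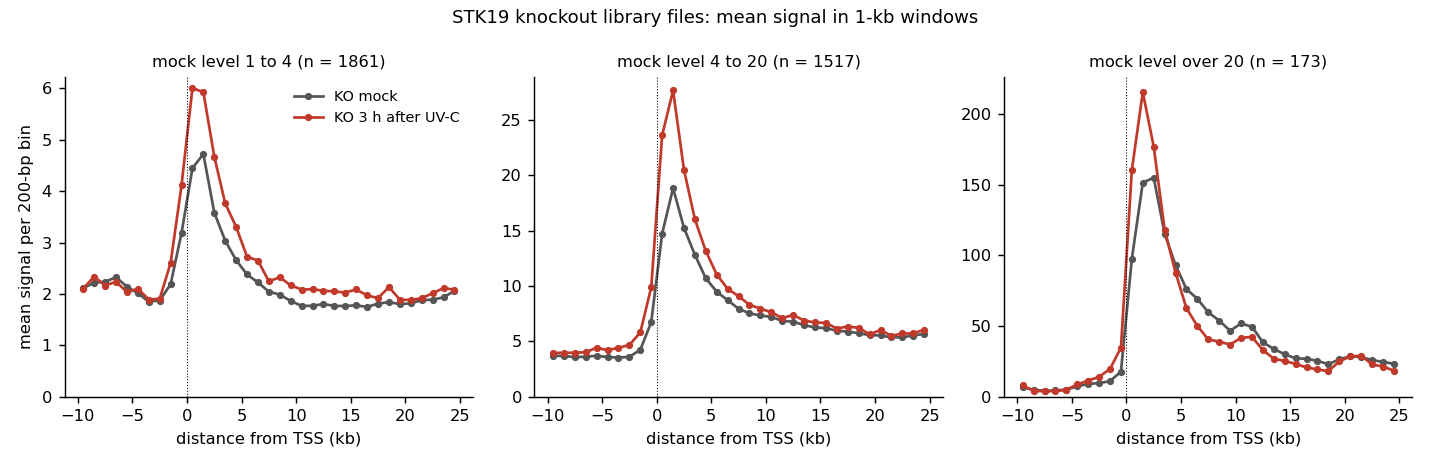
Mean signal per 200-bp bin in 1-kb windows from 10 kb upstream to 25 kb downstream of the TSS in the knockout, mock in grey and 3 h in red, 1 panel per mock level class, 1 library per line. In the panel over 20 the 3 h line is above mock from 5 kb before the TSS to 4 kb after it and below mock in most windows beyond; in the other panels it lies above mock in most windows downstream of the TSS.

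Signal upstream of the TSS, which at many human promoters is divergent transcription on the opposite strand, was also higher at 3 h. The sources used here do not give whether counting was stranded, and upstream signal may also hold neighbouring or antisense transcription. From 5 kb upstream to the TSS, the pooled ratio was 1.14, 1.34 and 1.61 in the classes from 1 to 4, 4 to 20 and over 20. At the upstream maximum of the mock profile, at -600 bp, it was 1.25, 1.44 and 1.94. The order of the classes was thus the same at both widths. Signal in the first 1 kb divided by that in the 4 kb after it, a measure of how much of the early signal sits at the TSS, went from 1.27 to 1.36 in the class from 1 to 4. It went from 1.02 to 1.22 in the class from 4 to 20, and from 0.759 to 1.07 in the class over 20.

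Pooled values rest most on the strongest identifiers, and single identifiers varied widely around them. In the class over 20, 70.1% of identifiers with mock signal there had more signal at 3 h in the first 1 kb, against 63.3% in the class from 4 to 20 and 48.2% in the class from 1 to 4. Upstream, the median ratio of single identifiers was 1.15 in the class over 20, but 0.838 and 0.641 in the lower classes, where the pooled ratio was above 1. At 3 h, 71.4% of the bins from 0 to 25 kb were empty in the class from 1 to 4, against 24.0% in mock. The shares were 44.4% against 9.12% in the class from 4 to 20 and 27.3% against 9.63% in the class over 20. Empty bins at 3 h were thus most frequent in the classes where identifier medians and pooled ratios disagreed, and the part of depth in that disagreement was not tested. In the class over 20, 82 of 173 identifiers were higher at 3 h both upstream and in the first 1 kb, 37 in the first 1 kb alone, 14 upstream alone and 40 in neither. Higher signal in the first 1 kb together with lower signal from 25 to 100 kb was found for 71 of those 173, for 554 of 1517 in the middle class and for 499 of 1861 in the lowest. Lower signal from 25 to 100 kb, whatever the first 1 kb, was found for 110, 935 and 1157 in the same order. Whether both traits met more often than their separate frequencies give was not tested.

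The share of signal near the TSS does not depend on how a library was scaled. The near share, the percentage of the 0 to 100 kb signal that fell within 25 kb of the TSS, was higher at 3 h in every class. It was 22.6% in mock and 26.6% at 3 h in the class from 1 to 4, 37.7% and 42.4% in the class from 4 to 20, and 70% and 75.5% in the class over 20. Those are gains of 4.06, 4.64 and 5.46 percentage points. Among single identifiers, the share was higher at 3 h in 1166 of 1859, 1020 of 1517 and 109 of 173. The median gain of an identifier was 2.85, 3.64 and 1.17 points, and the quartiles ran from -3.57 to 12.0, from -1.80 to 12.0 and from -2.74 to 7.29. In the class over 20 the median gain was the smallest of the 3 classes and the pooled gain the largest, and 64 of its identifiers had a lower near share at 3 h.

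The level classes mix short and long transcription units, so members were also divided by how far signal reached in the WT mock library, a division chosen after the data had been seen and independent of both knockout libraries. Reach was the run of 5-kb windows with a mean signal of at least 0.5, and 2456 identifiers could be placed. The 352 identifiers with a reach of 100 kb or more had a pooled ratio of 1.67 over the 5 kb before the TSS, 1.48 from 0 to 5 kb, 0.935 from 5 to 25 kb and 0.762 from 75 to 100 kb, with 17 of 20 windows below mock. The 778 with a reach of 25 to 50 kb had ratios of 1.20 before the TSS, 1.37 over the first 5 kb and 0.979 between 5 and 25 kb. The 90 with a reach under 10 kb had a ratio of 1.85 before the TSS, 0.968 within 5 kb and 1.15 between 5 and 25 kb. From 5 to 10 kb their signal was low, 0.672 per bin in mock, and rested on 421 steps at 3 h. The stretch from 10 to 25 kb lies past their reach, so signal there may belong to other units. The median of the identifiers' own gains in near share at 3 h was 2.13 points for a reach under 10 kb, 2.38 for 10 to 25 kb, 3.40 for 25 to 50 kb, 7.02 for 50 to 100 kb and 10.6 for 100 kb or more. In the group of longest reach, 279 of 352 identifiers had a higher near share at 3 h. More signal in the first 1 kb was found for 224 of them all, less from 25 to 100 kb for 262 and both for 161.

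The authors' averaged profiles gave the same comparison in long genes at 200-bp detail. The deposited tables held the mean signal over 308 genes of at least 100 kb, 787 of at least 50 kb and 1473 of at least 25 kb, from 5 kb upstream to 100 kb downstream. The names of these averages also carry the word TOP, so a ranking besides length may have entered the choice of genes. The sources used here do not explain it. Each table holds 1 value per bin and library, so the values have no error. Their steps were finer than those of the library files, and their signal was not compared with that of the files in absolute terms. In genes of at least 100 kb, the knockout's peak stood at 800 bp in both conditions and was 14.8 in mock and 33.2 at 3 h. The highest ratio in the first 5 kb was 2.30, at 1000 bp. The smaller upstream peak, at -600 bp, was 6.48 in mock and 13.1 at 3 h, a ratio of 2.02, and the dip between the peaks, at -200 bp, was 4.18 and 8.43, a ratio of 2.02. Upstream peak, dip and downstream peak were thus all higher at 3 h by similar ratios.

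**Figure D3:**
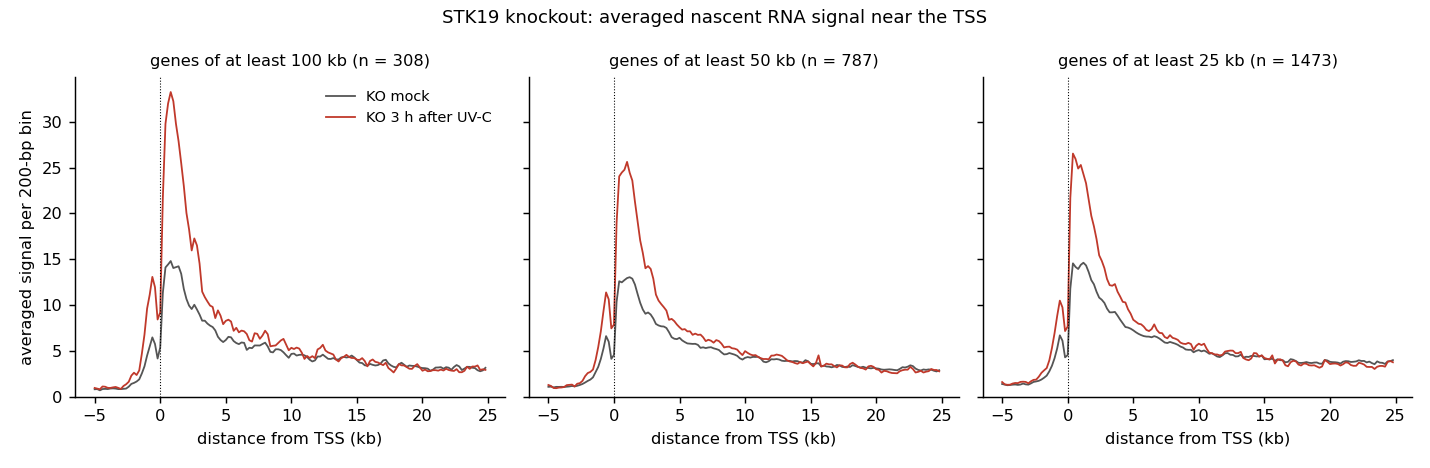
Averaged signal per 200-bp bin in the knockout from 5 kb upstream to 25 kb downstream of the TSS, mock in grey and 3 h in red, 1 panel per gene-length class, from the authors' averages of 1 library per line. The 3 h line peaks at 33.2, 25.6 and 26.5 in genes of at least 100, 50 and 25 kb, above mock peaks of 14.8, 13.0 and 14.6, and meets the mock line between 10 and 20 kb.

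Further into these genes the 3 h signal crossed mock and then declined in 2 stages. In genes of at least 100 kb the ratio was 1.80 from 0 to 5 kb, 1.21 from 5 to 10 kb, 1.08 between 10 and 15 kb and 0.994 between 15 and 20 kb. The first 200-bp bin below mock lay at 11 kb and the first run of 5 such bins at 16.8 kb. From 25 to 45 kb the ratio was 0.923, with 0.975 in the window from 40 to 45 kb. It was 0.624 between 50 and 75 kb and 0.443 beyond 75 kb. From 80 kb on the 5-kb windows lay between 0.428 and 0.441, and the lowest bin, 0.274, lay at 95.8 kb. In all, 386 of 500 downstream bins were below mock. A stretch near mock level thus separated the excess at the TSS from the low signal beyond 50 kb. The ratio beyond 75 kb was lower here than the 0.762 of the library-file identifiers with a reach of 100 kb or more. Why these sets differ was not tested.

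The averages with lower minimum lengths, which by their names also take in the longer genes, showed smaller differences at the TSS and at the far end. The mock peak in genes of at least 50 kb was 13.0, at 1200 bp, and the 3 h peak 25.6, at 1000 bp. In genes of at least 25 kb the peaks were 14.6, at 1200 bp, and 26.5, at 400 bp. The upstream peak was higher at 3 h by ratios of 1.72 and 1.56. From 75 to 100 kb the ratios were 0.60 and 0.756, over windows that reach past the end of many of these genes. In genes of at least 25 kb the ratio was 0.874 from 25 to 50 kb and 0.924 from 50 to 75 kb, so it did not decline between those stretches. Bins below mock numbered 410 and 399 of 500. The distance from the TSS within which 50% of the signal of the first 100 kb lay went from 35.8 kb in mock to 15.8 kb at 3 h in genes of at least 100 kb. It went from 39.2 to 22.8 kb in genes of at least 50 kb and from 36 to 26.6 kb in genes of at least 25 kb. The near share in these averages went from 41.7% to 59.8%, from 38.3% to 52.1% and from 40% to 48.7%.

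A narrow peak interrupted the averages with lower minimum lengths. The ratio from 65 to 70 kb was 1.25 in genes of at least 50 kb and 1.13 in genes of at least 25 kb, while its neighbours lay below 1. The bin at 66 kb held 7.07 in mock and 37.0 at 3 h in genes of at least 50 kb, and 5.03 and 21.0 in genes of at least 25 kb. In genes of at least 100 kb it held 2.31 and 1.42, so the peak was absent there. Without 4 bins around 66 kb the 65 to 70 kb ratios were 0.593 and 0.770. In the library files, the identifier uc003pbh.3, picked out after its values were seen, had the highest signal in that bin, 1143 in KO mock and 8911 at 3 h, against 727 for the next identifier at 3 h. Its signal in that bin was also high in the other libraries: 1893, 2081 and 3389 in WT mock, 3 h and 16 h, 2282, 8442 and 2534 in rescue, and 9130 in KO at 16 h. The averaged bin followed this identifier across libraries only in part. In genes of at least 50 kb both were lowest in KO mock, at 7.07 and 1143, and highest in KO at 16 h, at 74.3 and 9130. But that average was higher in WT at 16 h, 48.9, than in KO at 3 h, 37.0, where the identifier had 3389 and 8911. Whether the identifier is among the averaged genes was not tested.

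**Figure D4:**
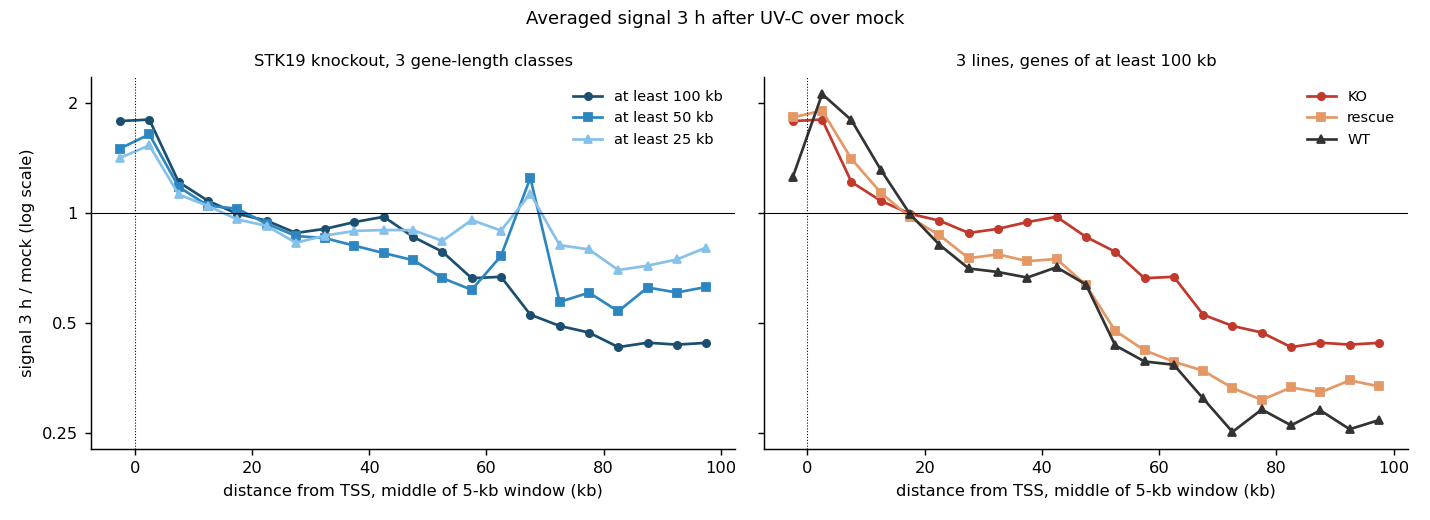
Averaged signal at 3 h divided by mock (log axis) in 5-kb windows along 100 kb, for the knockout in the 3 gene-length classes (left) and for the knockout, rescue and WT in genes of at least 100 kb (right), 1 library per side. On the left the points at 65 to 70 kb for genes of at least 50 and 25 kb stand at 1.25 and 1.13 above their neighbours; on the right the knockout is the highest line past 20 kb and the lowest from 0 to 15 kb.

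Set beside the other lines in genes of at least 100 kb, the knockout's excess was the largest of the 3 in the first 1 kb. It was the smallest from 0 to 5 kb and from 5 to 10 kb, and the knockout's ratio beyond 75 kb was the highest. In the first 1 kb the ratio was 2.10 in KO, 1.83 in rescue and 1.69 in WT. From 0 to 5 kb the ratio was 1.80 in KO, 1.90 in rescue and 2.12 in WT, and from 5 to 10 kb it was 1.21, 1.4 and 1.79. From 75 to 100 kb it was 0.443 in KO, 0.329 in rescue and 0.272 in WT. That order at the far end held in genes of at least 50 kb, with ratios of 0.60 in KO, 0.542 in rescue and 0.529 in WT. It did not hold in genes of at least 25 kb, with 0.756, 0.735 and 0.773 in the same order, or in the library files. In the library files, with classes set on the mean of the 3 mock libraries, KO had the lowest far ratio in every class. The values for KO, rescue and WT were 0.921, 0.939 and 0.966 for levels from 1 to 4, 0.947, 1.01 and 1.02 for 4 to 20, and 0.760, 0.826 and 0.869 over 20. The 5 kb before the TSS of genes of at least 100 kb had ratios of 1.78 in KO and 1.83 in rescue against 1.25 in WT. In the same genes, the distance holding 50% of the signal at 3 h was 15.8 kb in KO, 12.4 kb in rescue and 7.8 kb in WT, from mock values of 35.8, 38.2 and 35 kb. Near shares at 3 h were 59.8%, 66% and 74.2%, from 41.7%, 39.5% and 42.7% in mock. Knockout and rescue, which share the knockout background, were thus closer to each other than to WT upstream of the TSS, and in these genes rescue lay between KO and WT in the 0 to 5, 5 to 10 and 75 to 100 kb ratios and in the near share. Each line is 1 library per condition, and the spread of a line over repeat cultures was not measured.

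Whether single identifiers responded differently in the knockout was the one comparison that could be tested, with limma on all 9 libraries and WT and rescue as the other lines. The knockout's response was the median log2 difference of 3 h from mock in level from 0 to 25 kb, 0.17 in KO against 0.38 in WT and 0.13 in rescue over 3602 identifiers whose mean level reached 1. On log2 near over far signal it was 0.30 in KO, 0.44 in WT and 0.38 in rescue over 2335 identifiers. The test of the difference called 0 of 3602 identifiers for level (0.0%), and 43 had an unadjusted p under 0.05; the median difference was -0.09 on the log2 scale. For near over far signal it called 0 of 2335 (0.0%), and 48 had an unadjusted p under 0.05; the median was -0.15. With the mock and 3 h libraries alone, 2 identifiers were called for each measure, with 1 residual degree of freedom in place of 2. So few residual degrees of freedom, which treat differences between lines as error, cannot show that the lines responded alike.

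Single identifiers differed from mock in both directions by level. With log2(level + 0.1), 264 of the 3551 members with a mock level of at least 1 were more than 2-fold higher at 3 h (7.43%) and 328 more than 2-fold lower (9.24%). By class, the counts higher and lower were 144 and 228 of 1861 for levels from 1 to 4, 109 and 84 of 1517 for 4 to 20, and 11 and 16 of 173 for levels over 20. The share of higher among all that passed the fold was 44.6%. It was 32.5% with the libraries rescaled to a median log2 ratio of 0 (186 higher, 386 lower), 29.2% for the level from 0 to 100 kb (128 and 311) and 57.4% with the minimum set on the mean of both libraries (325 and 241). Which direction prevailed therefore depended on the setting. Median log2 ratios were 0.11, 0.14 and -0.10 in the 3 classes, and the 5th and 95th percentiles over all 3551 were -1.41 and 1.13.

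The most extreme identifiers among those with a mock level of at least 4 were taken as examples, 2 in each direction, and their levels came from single libraries. The identifier uc001bps.4 had a level of 5.0 in the mock knockout and 45.7 in the 3 h knockout, 9.13-fold higher, and 20.7 at 16 h. Its levels in mock, 3 h and 16 h were 14.6, 114 and 7.44 for WT. For rescue they were 4.68, 55 and 10.1, so the 3 h library was highest in every line. Its signal from 0 to 5 kb went from 7.76 to 141 in KO, and that from 25 to 100 kb from 1.75 to 4.14. Its highest bin in KO at 3 h, 376, lay at 86.6 kb, so part of the signal beyond 25 kb may belong to another unit.

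The identifier uc003zkw.4 had 4.28, 33.1 and 7.64 in KO in the same order, 7.73-fold higher at 3 h. The other lines were close to these values, with 5.36, 32.7 and 5.49 in WT and 3.75, 32.1 and 6.16 in rescue. Its highest bin at 3 h lay at 0.4 kb in all 3 lines.

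The identifier uc011lhk.3 had 25.4, 2.65 and 2.32 in KO, 9.58-fold lower at 3 h. WT had 7.06, 3.30 and 2.38 and rescue 17.6, 2.91 and 5.61, so the lines differed most in mock. The identifier uc061itv.1 had 14.2, 1.87 and 3.91 in KO, 7.58-fold lower at 3 h. WT had 4.64, 2.36 and 3.71 and rescue 13.4, 6.95 and 5.93. Its highest bin in KO mock lay 9.6 kb upstream of the TSS, so part of its signal may belong to a neighbouring unit. For both, levels in KO mock and rescue mock were above WT mock, and at 3 h the KO library was the lowest of the 3. Both were picked for the lowest KO ratios of 3 h to mock, which favours a high KO mock and a low KO 3 h level.

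**Figure D5:**
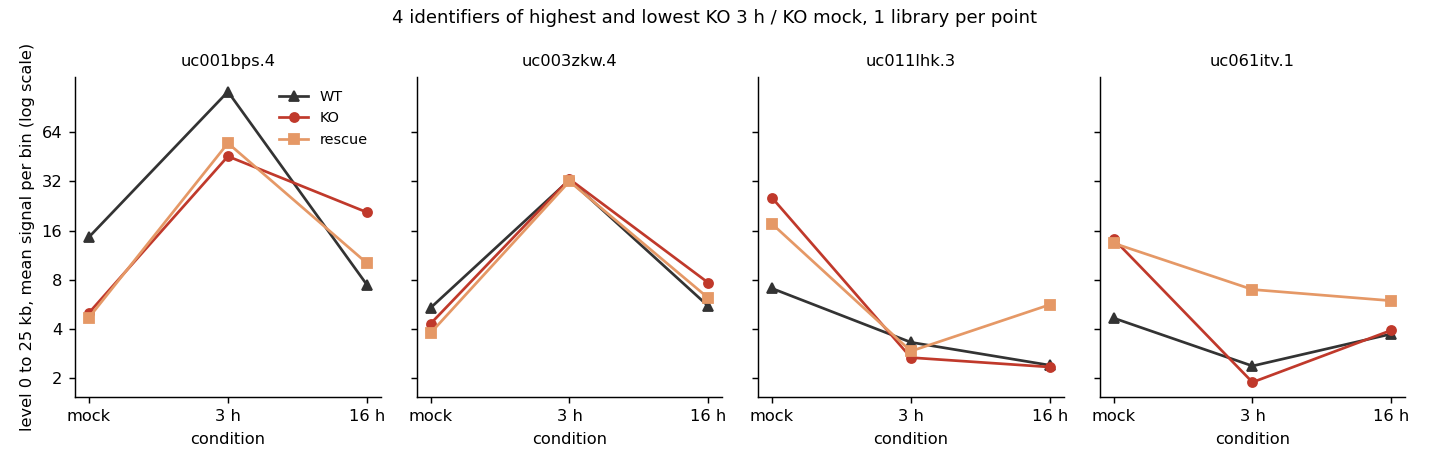
Level from 0 to 25 kb (mean signal per 200-bp bin, log axis) of 4 identifiers in mock, 3 h and 16 h libraries of WT, KO and rescue, 1 library per point, no error bars. The panels on the left (uc001bps.4 and uc003zkw.4) peak at 3 h in all 3 lines. In the panels on the right (uc011lhk.3 and uc061itv.1) KO starts highest in mock and is lowest at 3 h, which their choice by KO ratio favours.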

How the data were processed

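BrU-seq libraries of 3 RPE1 lines in 3 conditions were used, 1 library each, grouped by the sample titles. Per the labels' protocols, TruSeq libraries were sequenced as 151 bp pairs (NovaSeq). Per the submitters' processing notes, the tools were STAR 2.7.7a, HOMER 4.8.2, Trim Galore 0.6.5, FastQC 0.11.9 and R 4.0.5, and the builds hg38 and GRCh38; their roles and order are not stated, and no spike-in is named. The deposited signal is coverage in 200-bp bins, scaled by the authors per library; the sources used here do not give the total. Every value was a whole number of its library's smallest steps, within a tolerance of 0.02. Because a fragment covers several bins, values were not taken for read counts, and no count model was used.

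Levels, windows and shares were computed with Python 3.11.15, numpy 2.4.6 and pandas 2.3.3. Pooled ratios are ratios of summed signal over the identifiers of a class, with no test. Identifiers in 1 knockout file only were left out of them. The difference between lines was tested with limma 3.58.1 (R 4.3.3, with trend) on log2(level + 0.1), with p adjusted after Benjamini-Hochberg and called under 0.05, and on log2 of near over far summed signal with a pseudocount of 10, in a model with line, condition and knockout-by-time terms. On that scale fold changes of low identifiers are understated. The scripts were tested on simulated data. How many simulated differences the limma fit recovered depended on the residual spread assumed, and with each identifier's own spread it recovered none. With the spread moderated across identifiers, it recovered 4 of 100 2-fold and 40 of 50 8-fold differences for level. For near over far signal it recovered 10 of 100 and 47 of 50. False calls numbered 4 and 11 in the same order. The members, classes and lists were chosen with earlier results of these data known. The rule for naming identifiers was the 2 highest and 2 lowest log2 ratios among those with a mock level of at least 4. Alternatives covered the classes, weights, windows, scaling, pseudocount, minimum level and libraries fitted.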

Additional observations from a re-analysis of the deposited data

Results flagged for a closer look

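Signal in the first 1 kb divided by that in the 4 kb after it, in the authors' averaged profiles, was higher at 3 h than in mock in KO and lower at 3 h in WT and in rescue. The gain in KO was 0.285 in genes of at least 100 kb, from 1.25 to 1.53, 0.245 in genes of at least 50 kb, from 1.15 to 1.4, and 0.275 in genes of at least 25 kb, from 1.12 to 1.4. The WT values at 3 h, in the same order of tables, were 1.18, 1.06 and 1.08 against mock values of 1.6, 1.5 and 1.47. Those of rescue were 1.29, 1.16 and 1.16 against 1.36, 1.27 and 1.23. Values in mock already differed, with KO the lowest and WT the highest of the lines in each table, and at 3 h that order was turned, with KO the highest. This drew attention because the single library of each line moved in opposite directions. It was 1 of 11 measures compared between lines in 3 tables that overlap in genes, each line had 1 library per condition, and the difference was not tested.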

How the results depend on the processing

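No paired analysis was possible because each group held 1 library and all carry replicate number 1. Of the alternatives run, 43 were labelled the same as the main one, 50 moved, 2 stronger and 2 reversed. For pooled ratios and near shares, same meant within counting error, and for counts past a fold within 1.5 times. For limma calls and the first position below mock it meant an equal value. Averaged-profile ratios were labelled moved at any size of difference unless they reversed. The counting error assumed 3 steps of signal per fragment, a figure taken from the data. All 21 alternatives for 0 to 5 kb stayed above 1 (1.10 to 1.42). All 21 for 75 to 100 kb stayed below 1 (0.755 to 0.961). All 18 for the near share stayed above 0 (1.17 to 7.34 points). Some of these were no check, because they returned the main value exactly in every class. They were keeping only identifiers found in the files of every library and, for the ratios, counting repeated rows once. Both are included in these totals and among the alternatives labelled the same. In the order 1 to 4, 4 to 20 and over 20, the 0 to 5 kb ratios were 1.24, 1.36 and 1.3 with classes from WT mock and 1.10, 1.36 and 1.35 with classes from the mean of both knockout libraries. Rescaled to a median ratio of 1, those of the last 2 classes were 1.42 and 1.26, and with equal weight per identifier that of the class over 20 was 1.33. The near share gained 3.18, 4.33 and 5.03 points with classes from WT mock, 2.08 and 4.08 (lower 2 classes) from the mean, 2.82 and 7.34 (lowest and highest class) for a near window of 10 kb, 2.35, 3.34 and 2.83 for 50 kb, and 2.85, 3.64 and 1.17 as a median of identifiers. Identifiers past 2-fold, higher and lower, numbered 166 and 137 with a pseudocount of 1 and 602 and 761 with no minimum level, 25 and 77 past 4-fold, and 128 higher at 0 to 100 kb. Relative to the ratio of the 0 to 100 kb sum, the averaged profiles of genes of at least 100, 50 and 25 kb gave 1.91, 1.74 and 1.53 at 0 to 5 kb and 0.469, 0.637 and 0.758 at 75 to 100 kb. The first position below mock was 11, 11 and 13.4 kb in 200-bp bins, 14, 14 and 13 kb in 1-kb bins and 15, 20 and 15 kb in 5-kb bins. The 65 to 70 kb ratios reversed to 0.593 and 0.770 without 4 bins, an alternative chosen after seeing the data. With the mock and 3 h libraries only, limma called 2 identifiers for level and 2 for near over far signal. Leaving out a library of the 2 compared leaves no comparison. The depth of the 3 h library limits single identifiers more than pooled windows, which held at least 3575 steps at 3 h downstream of the TSS, and as few as 1775 upstream, in the 3 classes. Causes of these shifts were not tested.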

Other observations

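Identifiers in only 1 of the knockout files were nearly silent: 804 occurred in the mock file alone, with 577 at a level of 0 and none above 0.212, and 115 in the 3 h file alone, with 100 at 0 and none above 0.117.

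The 4833 identifiers with a mock level under 1 had an upstream signal, from 100 to 25 kb before the TSS, of 1.69 per bin in mock and 1.67 at 3 h. Their pooled ratio from 0 to 5 kb was 1.29, and 16 of 20 downstream windows were above mock, against 5 of 20, 8 of 20 and 1 of 20 in the classes from 1 to 4, 4 to 20 and over 20. These identifiers carried 30.0% of the summed signal in mock and 29.5% at 3 h, most of it outside the first 25 kb, where their near share was 4.30% and 5.0%.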
